A study of Mus musculus with 12 samples.

Results

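The interferon-induced GTPases of the guanylate-binding protein (GBP) and immunity-related GTPase (IRG) families were described across 12 mouse livers. The set holds 10 genes, Gbp2, Gbp3, Gbp6, Gbp7, Gbp8, Gbp9, Gbp10, Igtp, Irgm1 and Iigp1, of the 45777 gene symbols in the deposited table, and each member was found by its symbol. The 10 genes were chosen by their measured values in these same livers, so that their levels and differences are given as a description and no test of them stands as a result. The livers came from male C57BL/6 mice, labelled 10 to 12 weeks old, in 4 groups of 3 animals. Wild-type mice received vehicle (WT vehicle) or a single intraperitoneal overdose of the painkiller acetaminophen (WT APAP, 300 mg/kg), and mice labelled Gα12-/- received vehicle (KO vehicle) or the same overdose (KO APAP). All animals were fasted overnight before the injection, the livers were taken 6 h after it, and the whole organ was lysed, so that hepatocytes and the other liver cells were measured together. In such bulk tissue, fewer cells of a type and less RNA per cell cannot be told apart. Gα12 is a G protein subunit encoded by Gna12, and the Gα12-/- label could not be seen in the counts per gene. Gna12 had 1193 to 4373 counts in the livers of WT mice and 2472 to 4003 counts in those labelled KO. Counts summed over a gene cannot show whether only a part of it is missing. The paper describes PCR of tail DNA, qRT-PCR of liver Gna12 and Gα12 immunoblots for WT and knockout mice. The genotype itself was not tested here. The label is therefore written as the KO label throughout.

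The members lie on 4 chromosomes of the mouse genome (build GRCm38), and all are annotated as protein-coding. Gbp7, Gbp3 and Gbp2 lie on chromosome 3 within 107.7 kb (142530336 to 142638008), with Gbp2b, a GBP gene that is no member, between Gbp3 and Gbp2. Gbp8, Gbp9, Gbp10 and Gbp6 lie on chromosome 5 within 283.4 kb (105012513 to 105295871), which is 35.5 Mb from Gna12 on the same chromosome. Irgm1 (48865245 to 48871420) and Igtp (58199556 to 58207592) are both on chromosome 11 but far apart, and Iigp1 is on chromosome 18 (60373616 to 60392634).

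GBP and IRG proteins are large GTPases that cells make after interferon signals, above all after interferon-gamma. Interferon-gamma binds a receptor made of Ifngr1 and Ifngr2, the kinases Jak1 and Jak2 pass the signal on, and the factor IRF1 helps to switch these genes on. Once made, the proteins gather on the vacuoles of intracellular bacteria and parasites. Among the IRG proteins, Irgm1 and Igtp belong to a regulatory class that keeps the effector GTPases in check on the cell's own membranes, whereas Iigp1 is an effector that coats and breaks pathogen vacuoles. GBPs also assist inflammasome activation, and the liver's macrophages, endothelium and hepatocytes can all respond to interferon.

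The promoter sequences were searched for the letters of elements through which interferon signals can reach genes, and a few matches are printed here. RefSeq promoters (GRCm38.p6, 250 bases before to 50 bases after the annotated start) were at hand for 5 of the 10 members, Gbp2, Gbp3, Gbp7, Igtp and Irgm1, and those of Gbp6, Gbp8, Gbp9, Gbp10 and Iigp1 are named only. Both strands were searched for GAAANNGAA, the core of the interferon-stimulated response element (ISRE) that IRF factors bind, and for TTCNNNGAA, the gamma-activated site (GAS) of interferon-gamma signalling, which reads the same on both strands. The windows below run 5′ to 3′ in the direction of the gene, with the match in capitals.
Gbp2 ISRE core: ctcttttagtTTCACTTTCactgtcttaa
Gbp3 ISRE core: aggacacagtTTCAGTTTCtatttcccag
Gbp7 ISRE core: tgtgtgcagtTTCAGTTTCagttctccat
Gbp7 GAS: aagcagaagcTTCTCAGAAagtcagcaca
Igtp GAS: aactagccatTTCTAGGAActgaaactga
Igtp ISRE core: tctaggaactGAAACTGAAagctgttcgg
Irgm1 ISRE core: cctgtttcaaGAAATAGAAaccgaaactg
Irgm2 GAS: aactagccatTTCCAGGAActgaaactga
Tgtp1 GAS: aactagccatTTCCAGGAAtcgaaactga

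An ISRE core was present in a promoter of 5 of these 5 members, and a GAS in 2 of them, Gbp7 and Igtp. These members had 6 promoters, and that of the second start site of Gbp3 held 0 ISRE cores and 0 GAS. Of all 32851 RefSeq promoters of the same length, 8.56% held an ISRE core, 8.3% a GAS and 1.07% both. Coordinates below are those of the printed windows of 29 bases, and positions are those of the first matching base from the start site. The windows around the cores on chromosome 3 were chr3:142620595-142620623 (Gbp2, -58), chr3:142559990-142560018 (Gbp3, -44) and chr3:142530274-142530302 (Gbp7, -52). These cores were all read on the strand opposite to the gene, and a second, overlapping core of Gbp3 lay at -38. The window of the Gbp7 GAS printed above was chr3:142530239-142530267 (-87), and a second GAS lay at position -106. In Igtp the GAS (window chr11:58199501-58199529, -45) was closely followed by the ISRE core (window chr11:58199512-58199540, -34), and the windows overlap. The Irgm1 window (chr11:48871432-48871460, minus strand, -30) was followed by a second, overlapping core at -24. The windows of 2 further IRG genes that are not members, Irgm2 (chr11:58214892-58214920) and Tgtp1 (chr11:48992316-48992344, minus strand), are shown because they closely repeat that of Igtp: Irgm2 matched it at 28 and Tgtp1 at 26 of 29 positions. A match of letters is a description and does not show that a factor binds there.

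Some members share sequence, which bears on how their reads could be told apart. Of all distinct stretches of 100 bases, the length of a read, in the GENCODE transcripts of Gbp10, 73.5% also occur in transcripts of another gene, 63.6% in those of Gm43302 and 60.1% in those of Gbp6. For Gbp6 the shared part was 64.5%, with 59% occurring in Gm43302 and 36.3% in Gbp10. The values of Gbp6 and Gbp10 are therefore uncertain with respect to each other and to Gm43302. The shared part was 10% or less for the other 8 members (10% for Gbp7, 5.16% for Igtp, 4.39% for Gbp8) and 0 for Gbp2, Irgm1 and Iigp1. Reads came from a stranded kit, and how the counting treated strand is not given in the sources used here.

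Between 49737950 and 69566079 reads were counted on genes in each liver, and all 10 members were counted in every liver. The 3 IRG genes were the most abundant members. Iigp1 had 7985 to 35875 counts per liver, Irgm1 1297 to 3175 and Igtp 829 to 3241. The GBPs had fewer: Gbp7 had 184 to 1025 counts and Gbp6 159 to 981, whereas Gbp8 had only 16 to 221. On the scale of transcripts-per-million (TPM), which divides by transcript length, Iigp1 made up 64.3% of the 10 members' summed TPM over all livers, Irgm1 15.2%, Igtp 13.3%, and each GBP between 0.316% (Gbp8) and 1.8% (Gbp6). Counts-per-million (CPM, scaled by the TMM method) are used below to compare one gene between livers.

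Among the GBPs of chromosome 5, Gbp10 had 2.69, 1.93 and 2.52 CPM in the WT vehicle livers, 2.42, 3.24 and 4.33 in WT APAP, 11.1, 6.64 and 8.80 in KO vehicle, and 4.58, 6.22 and 4.78 in KO APAP. All 3 KO vehicle livers stood above the other 9. Gbp6 had 4.02, 3.33 and 4.77 CPM in WT vehicle, 5.40, 6.28 and 8.41 in WT APAP, 16.5, 10.1 and 14.1 in KO vehicle, and 13.6, 11.02 and 10.4 in KO APAP. All 6 livers with the KO label stood above all 6 WT livers for Gbp6, while the KO vehicle and KO APAP livers overlapped. Gbp8 had 1.56, 0.335 and 1.52 CPM in WT vehicle, 0.695, 1.14 and 0.652 in WT APAP, 3.71, 1.71 and 2.39 in KO vehicle, and 1.50, 1.31 and 0.783 in KO APAP. Again the KO vehicle livers lay above all others, although WT vehicle replicate 2 rested on 16 counts. Gbp9 had 3.08, 1.68 and 3.45 CPM in WT vehicle, 4.13, 3.30 and 2.34 in WT APAP, 6.32, 3.89 and 5.41 in KO vehicle, and 4.32, 3.82 and 4.63 in KO APAP. Here the KO vehicle livers cleared the WT vehicle livers but overlapped both APAP groups.

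Among the GBPs of chromosome 3, Gbp7 had 6.33, 7.94 and 7.17 CPM in WT vehicle, 3.66, 4.94 and 4.04 in WT APAP, 17.2, 9.91 and 13.0 in KO vehicle, and 4.42, 6.43 and 6.90 in KO APAP. It was the GBP with the lowest levels after APAP in relation to vehicle under both labels. Gbp2 had 1.50, 1.93 and 1.32 CPM in WT vehicle, 1.93, 3.28 and 2.47 in WT APAP, 4.95, 2.39 and 2.74 in KO vehicle, and 2.45, 2.57 and 3.12 in KO APAP. KO vehicle replicate 1 stood far above the other livers. Gbp3 had 2.27, 1.49 and 2.95 CPM in WT vehicle, 3.48, 2.33 and 3.20 in WT APAP, 5.59, 4.07 and 6.19 in KO vehicle, and 4.37, 2.96 and 4.14 in KO APAP. Its KO vehicle livers lay above all 6 WT livers and overlapped the KO APAP livers.

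Of the IRG genes, Igtp had 17.9, 27.1 and 21.3 CPM in WT vehicle, 16.5, 30.2 and 27.3 in WT APAP, 54.4, 28.3 and 51.8 in KO vehicle, and 44.2, 29.1 and 24.0 in KO APAP. Its KO vehicle livers lay above the WT vehicle livers, with replicate 2 only just so. Irgm1 had 24.4, 40.5 and 28.7 CPM in WT vehicle, 29.2, 30.7 and 32.5 in WT APAP, 46.4, 35.8 and 54.1 in KO vehicle, and 55.5, 31.9 and 43.4 in KO APAP. For Irgm1 each group overlapped at least one other, and its means differed least among the members. The effector Iigp1 had 150.0, 266 and 189 CPM in WT vehicle, 194, 119 and 177 in WT APAP, 309, 223 and 355 in KO vehicle, and 241, 150 and 511 in KO APAP. The single liver at 511 CPM, KO APAP replicate 3, made KO APAP the highest group for Iigp1.

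**Figure D1:**
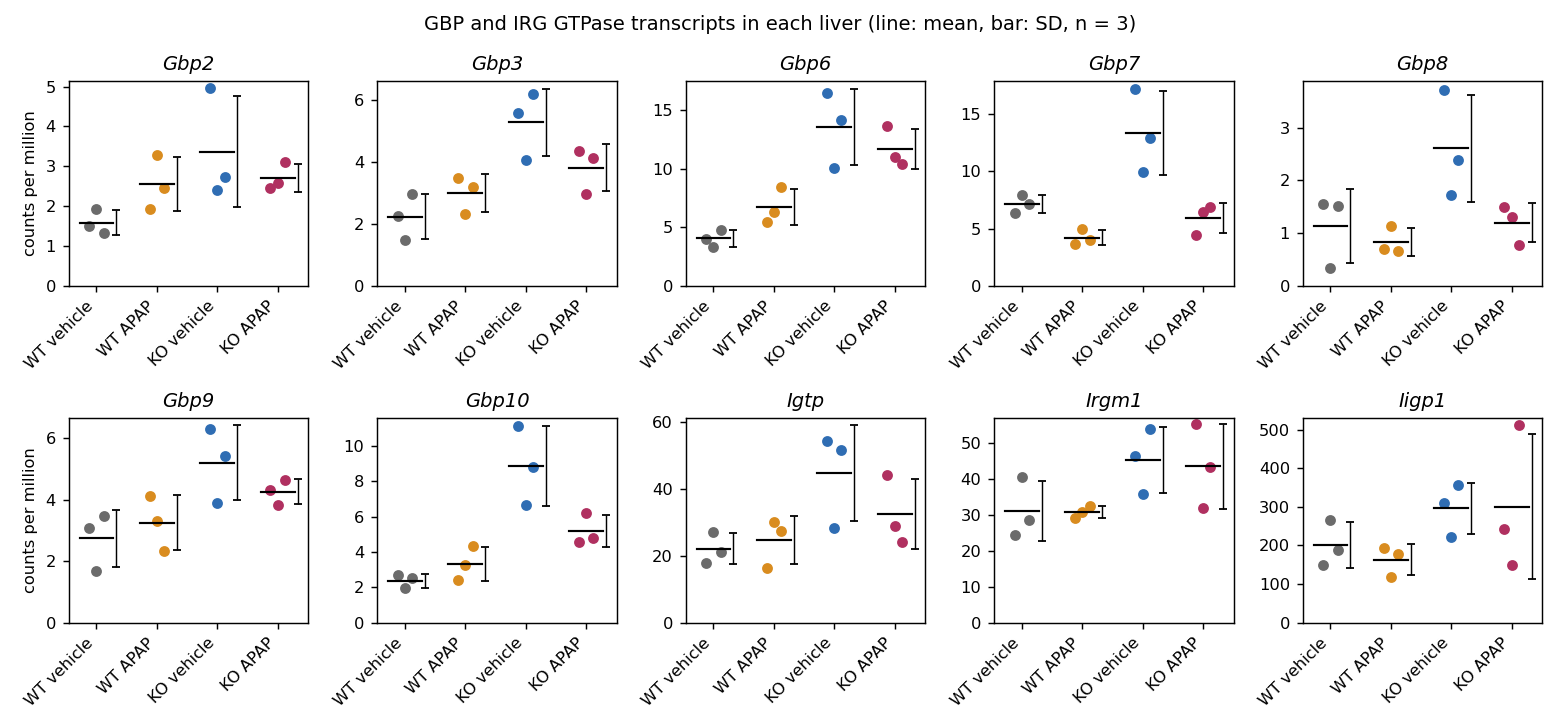
CPM of each of the 10 members in the 12 livers (points, vertical axis from 0), with the mean (line) and SD (bar) of the 3 livers in each group on the horizontal axis. The KO vehicle group has the highest mean for 9 of the 10 genes; Iigp1 is the exception, with 1 KO APAP liver at 511 CPM.

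Ordered by their means, KO vehicle was the highest group for 9 of 10 members, and the lowest was WT vehicle for 6 and WT APAP for 4. The highest group exceeded the lowest by 3.73-fold for Gbp10, 3.35-fold for Gbp6, 3.17-fold for Gbp7 and 3.14-fold for Gbp8, and by only 1.48-fold for Irgm1. Of the 30 neighbouring pairs of groups in this order, 24 overlapped. Neighbours are by this ordering the groups with the closest means, and the share over all genes was not counted, so nothing is read from that number. Single livers weighed heavily, with KO vehicle replicate 1 the highest of all 12 livers for 7 members and KO vehicle replicate 3 among the highest 3 for 9.

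The first comparison asks whether the KO label goes with another level before any toxicant is given. In KO vehicle against WT vehicle livers, the log2 fold change of the 10 members was above 0 for 10 of 10, with a median of 1.06, against a median of 0.007 and 51.1% above 0 over all genes tested. It was largest for Gbp10 (1.90, SE 0.25, 3.72-fold) and Gbp6 (1.75, SE 0.23, 3.35-fold), followed by Gbp3 (1.24, SE 0.29), Gbp8 (1.19, SE 0.55), Gbp2 (1.09, SE 0.33), Igtp (1.02, SE 0.27), Gbp9 (0.93, SE 0.31) and Gbp7 (0.90, SE 0.22). Iigp1 (0.55, SE 0.25) and Irgm1 (0.54, SE 0.22) showed the smallest differences. The groups did not overlap for 8 of 10 members, all but these last 2, where 7.46% of all genes tested had KO vehicle livers wholly above WT vehicle livers. By the quasi-likelihood test of edgeR 0 members were called at an adjusted p under 0.05 (0.0262% of genes were called in either direction), the smallest adjusted p being 0.094 for Gbp6 and Gbp10, and 8 had an unadjusted p under 0.05 on the higher side, as had 4.31% of all genes. DESeq2 called 5 members (Gbp3, Gbp6, Gbp7, Gbp10 and Igtp), where it called 75 higher and 62 lower of all 15262 genes, and limma on TPM called 0. Since the members were chosen on values of these livers, nothing is read from those counts.

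After APAP the same comparison gave a smaller median, although the value of Iigp1 was larger than with vehicle. In KO APAP against WT APAP livers the log2 fold change was above 0 for 10 of 10 members with a median of 0.48, against -0.017 over all genes tested. It was 0.86 (SE 0.43) for Iigp1, 0.79 (SE 0.22) for Gbp6, 0.63 (SE 0.28) for Gbp10, 0.49 (SE 0.21) for Irgm1 and 0.48 (SE 0.25) for Gbp7, and no more than 0.07 (SE 0.28) for Gbp2. Without KO APAP replicate 3 the value of Iigp1 was 0.25. The groups did not overlap for 2 members, Gbp6 and Gbp10 (4.87% of all genes on that side). By edgeR 0 members were called (0.0309% of genes in either direction), 1 had an unadjusted p under 0.05 (1.03% of genes on the higher side), and DESeq2 and limma called 0 each.

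**Figure D2:**
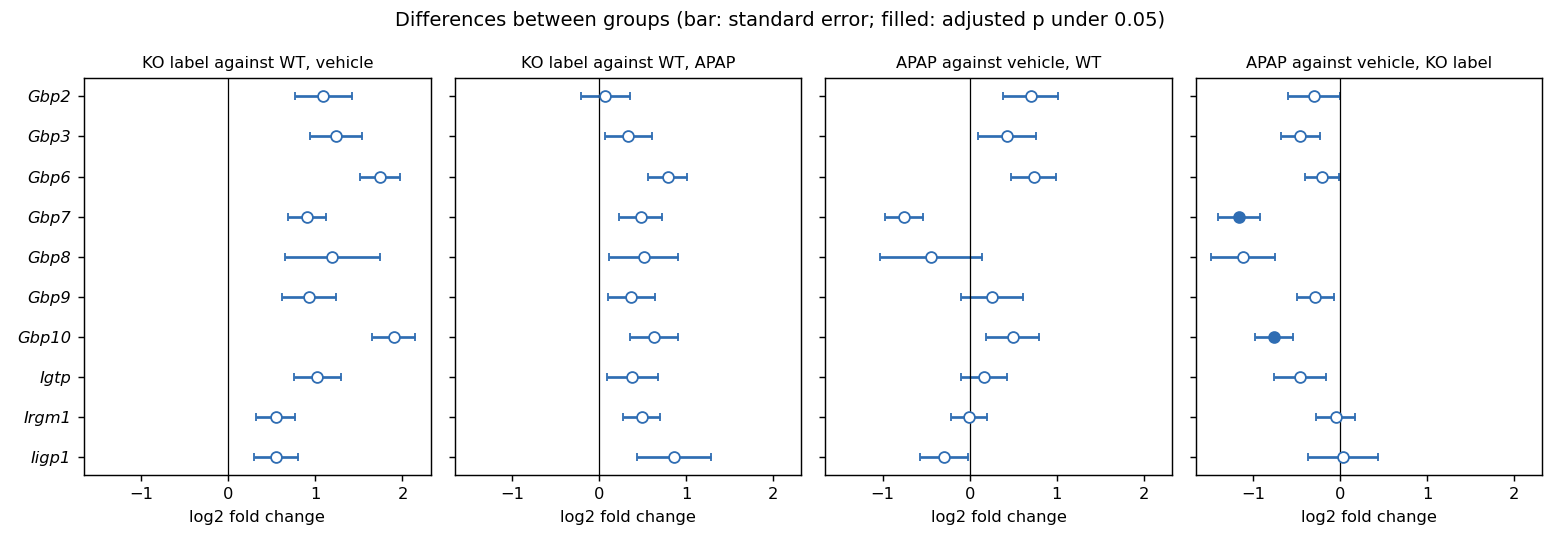
Log2 fold change of each member (points) with its standard error (bars) in the 4 comparisons, from edgeR fits of the 6 livers compared; filled points have an adjusted p under 0.05. All 10 points lie right of 0 in both comparisons of the KO label with WT, and the 2 filled points, Gbp7 and Gbp10, lie left of 0 in APAP against vehicle under the KO label.

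The effect of the overdose itself was described within each label. In WT livers, APAP against vehicle gave a median log2 fold change of 0.21 over the members (0.027 over all genes tested), with 6 above 0 and 4 below. Gbp6 stood at 0.74 (SE 0.26), Gbp2 at 0.70 (SE 0.32) and Gbp10 at 0.50 (SE 0.30), whereas Gbp7 stood at -0.75 (SE 0.22) and Gbp8 at -0.44 (SE 0.58). Irgm1 (-0.01, SE 0.21) was nearest to 0. The groups did not overlap for Gbp6 on the higher side (12.9% of all genes) and Gbp7 on the lower (11.9%). By edgeR 0 members were called (2.05% of genes), 2 had an unadjusted p under 0.05 (18% of genes), DESeq2 called Gbp7 alone, and limma called 0.

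Under the KO label, APAP against vehicle gave values below 0 for 9 of 10 members with a median of -0.38 (-0.022 over all genes tested). Gbp7, at -1.17 (SE 0.24, adjusted p = 0.0122 by edgeR's quasi-likelihood test), and Gbp10, at -0.76 (SE 0.22, adjusted p = 0.0405), were the 2 members called lower, where 9.6% of all genes tested were called lower and 13% higher. Gbp8 stood at -1.12 (SE 0.36), Igtp at -0.46 (SE 0.29), Gbp3 at -0.46 (SE 0.23) and Iigp1 at 0.03 (SE 0.40). The groups did not overlap for 3 members, Gbp7, Gbp8 and Gbp10 (21.1% of all genes on the lower side). The comparisons of KO vehicle with WT vehicle and with KO APAP share the 3 KO vehicle livers, so a high level there enters both differences. Gbp7 kept an adjusted p under 0.05 with each of the 6 libraries left out in turn. Gbp10 did not without KO vehicle replicate 1 or 3 or KO APAP replicate 1 or 3, with adjusted p from 0.0955 to 0.126.

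The APAP difference under the KO label minus that in WT, fitted over all 12 livers, was below 0 for 9 of 10 members, with a median of -0.65 on the log2 scale (-0.016 over all genes tested). It was -1.26 (SE 0.37) for Gbp10, -1.01 (SE 0.44) for Gbp2, -0.95 (SE 0.32) for Gbp6 and -0.89 (SE 0.40) for Gbp3, and 0.33 (SE 0.55) for Iigp1. By edgeR 0 of these were called, as was 0% of all 16509 genes, and DESeq2 and limma called 0 members. An unadjusted p under 0.05 on the lower side was found for 4 members and for 3.3% of all genes.

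Other genes of the same families were counted from a list of 18, which holds the remaining GBPs (Gbp2b, Gbp4, Gbp5, Gbp11) and IRG genes such as Irgm2, Tgtp1, Tgtp2 and Ifi47. In KO vehicle against WT vehicle livers, 13 of the 15 with enough counts had a log2 fold change above 0, with a median of 0.75. By edgeR 0 of them passed the adjusted threshold, and 7 had an unadjusted p under 0.05 on the higher side, as had 4.31% of all genes tested. DESeq2 called 3 and limma 0, where DESeq2 called 75 higher and 62 lower of all 15262 genes. Tgtp1, an effector IRG whose protein restricts intracellular parasites, had 1.69, 1.82 and 1.90 CPM in WT vehicle, 3.28, 1.97 and 1.99 in WT APAP, 7.04, 4.34 and 6.87 in KO vehicle, and 2.71, 3.71 and 2.70 in KO APAP. Its KO vehicle livers lay above the other 9. Tgtp1 and Tgtp2 share 70.3% of the 100-base stretches of Tgtp1, so that these 2 cannot be read apart with certainty.

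After APAP under the KO label, 3 of 16 other family genes fell and 0 rose at an adjusted p under 0.05, where 9.6% of all genes tested fell and 13% rose. Tgtp1 fell by 0.99 on the log2 scale (SE 0.24, adjusted p = 0.022, edgeR), F830016B08Rik by 1.24 (SE 0.34, adjusted p = 0.0339) and Gm4951 by 1.02 (SE 0.30, adjusted p = 0.0429). None of these 3 calls held with every library left out in turn. That of Tgtp1 was lost without KO vehicle replicate 1 or 3 or KO APAP replicate 1 or 3 (adjusted p 0.0666 to 0.0736). That of F830016B08Rik was lost without replicate 2 or 3 of either group (0.0741 to 0.114), and that of Gm4951 without each library but KO APAP replicate 1 (0.0613 to 0.139). In WT livers after APAP 0 of 15 were called by edgeR (2.05% of all genes tested), with 1 at an unadjusted p under 0.05 (18% in either direction). In KO APAP against WT APAP livers 0 of 15 were called (0.0309% of all genes tested), with 0 at an unadjusted p under 0.05. DESeq2 and limma called 0 in both.

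**Figure D3:**
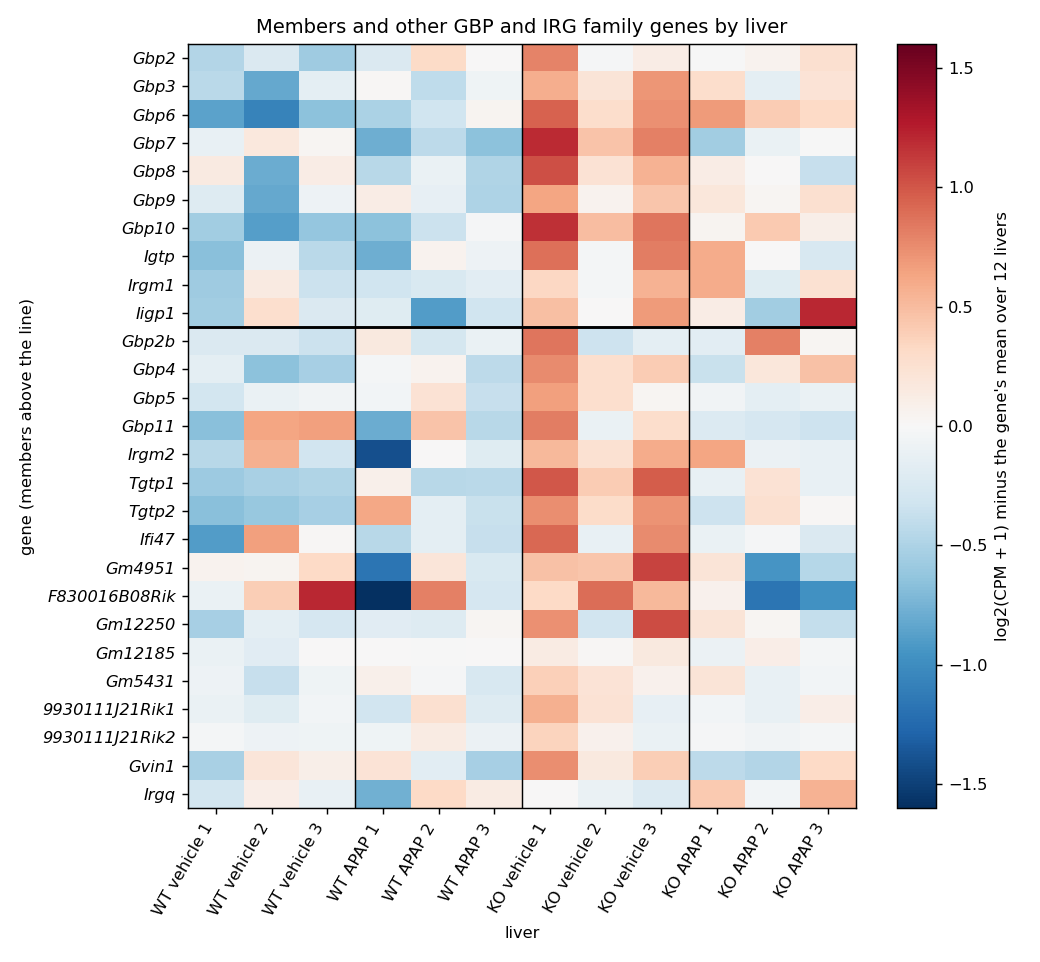
Levels of the 10 members (above the line) and the 17 other family genes with enough counts (below) in the 12 livers (columns), as log2(CPM + 1) minus the gene's mean over all livers (colour; red higher, blue lower). KO vehicle replicates 1 and 3 are the reddest columns among the members, and Iigp1 stands out in KO APAP replicate 3.

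Upstream of the GTPases, the ligand was at the limit of the depth. Ifng, which encodes interferon-gamma, was at 0 counts in 11 livers and at 0.0336 CPM in KO vehicle replicate 1, below the floor of 3 counts (0.0504 CPM in that library). Ifnl2 and Ifnl3 were at 0 in all 12 livers. Of the 9 ligands and inducers only 2 had enough counts to be tested, and of these Il15, a cytokine that sustains NK cells, fell after APAP under the KO label (by 1.41 on the log2 scale, SE 0.41, adjusted p = 0.0426, edgeR), a call that was lost without each library except KO vehicle replicate 2 (0.07 to 0.129). Irf1, whose protein binds ISRE cores, stood at -0.33 on the log2 scale (SE 0.23, adjusted p = 0.769, edgeR) in KO vehicle against WT vehicle.

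After APAP under the KO label, parts of the pathway were called in both directions, and the counts of each list stand against the 13% of all genes tested that rose and the 9.6% that fell. Socs1, an inhibitor of JAK kinases that interferon itself induces, had 0.101, 0.0389 and 0.221 CPM in KO vehicle and 1.73, 1.10 and 1.22 in KO APAP, and rose by 3.51 on the log2 scale (SE 0.53, adjusted p = 0.00393, edgeR). Socs3 rose by 2.32 (SE 0.38, adjusted p = 0.005) and the phosphatase Ptpn2 by 1.01 (SE 0.16, adjusted p = 0.00484), so that 3 of the 7 feedback inhibitors rose and 0 fell. Of the 14 receptors, kinases and factors 4 rose and 0 fell, among them the receptor chain Ifngr1 (0.84, SE 0.13, adjusted p = 0.00411) and Jak1 (0.57, SE 0.11, adjusted p = 0.00991). Irf8, a macrophage factor, also rose (0.68, SE 0.20, adjusted p = 0.042), but this call was lost without each library except KO vehicle replicate 1 (adjusted p 0.0626 to 0.121). The fourth, Irf9, was lost without each except KO APAP replicate 2 (0.0556 to 0.13). With all 12 livers in one fit neither Socs3 nor Ptpn2 passed. In WT livers after APAP edgeR called 0 of the 14 and 0 of the 7, against 2.05% of all genes tested. On the higher side, 4 of the 14 and 1 of the 7 did not overlap there, as did 12.9% of all genes. Ifngr1 had 515, 492 and 552 raw counts in WT vehicle and 1253, 1339 and 988 in WT APAP. Socs1 had 8, 24 and 5 raw counts in WT vehicle and 48, 89 and 44 in WT APAP.

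Of 23 interferon-gamma targets outside the GTPases, 6 fell and 2 rose after APAP under the KO label, against 9.6% and 13% of all genes tested. Those that fell most firmly encode the immunoproteasome, which trims peptides for presentation: Psmb9 fell by 1.61 (SE 0.19, adjusted p = 0.00158, edgeR), Psmb8 by 0.91 (SE 0.13, adjusted p = 0.00337) and Psmb10 by 0.75 (SE 0.11, adjusted p = 0.0038). Tapbp, which loads peptides on class I molecules, fell by 0.51 (SE 0.11, adjusted p = 0.0122). These 4 calls held with every library left out in turn. Psmb9 had 13.5, 9.93 and 11.4 CPM in KO vehicle and 3.09, 3.74 and 4.53 in KO APAP, and its WT values were 6.22, 5.09 and 9.16 with vehicle and 4.27, 3.75 and 3.26 after APAP. In WT livers Psmb9 stood at -0.85 (SE 0.28, adjusted p = 0.165), and the difference between the labels was not called for any gene in the interaction test. Of the 21 type I interferon-stimulated genes 2 rose, among them the antiviral enzyme gene Rsad2 (1.36, SE 0.23, adjusted p = 0.00605), and 2 fell, shares near those over all genes. The call of Rsad2 held with every library left out in turn, whereas those of the other riser, Mx2 (adjusted p 0.064 to 0.108), and of the 2 that fell, Ddx58 (0.0537 to 0.0574) and Parp14 (0.0631 to 0.0743), were lost without 4, 2 and 4 of the 6 libraries.

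In WT livers after APAP 1 of 22 interferon-gamma targets rose, where 2.05% of all genes tested were called in either direction. This was the chemokine gene Cxcl10 (4.74, SE 0.65, adjusted p = 0.0162, edgeR), which had 0.902, 1.22 and 0.539 CPM with vehicle and 32.5, 6.99 and 31.3 after APAP. Without WT vehicle replicate 1, WT vehicle replicate 3 or WT APAP replicate 3 its adjusted p lay between 0.0812 and 0.0921. For KO vehicle against WT vehicle all lists had 0 calls by edgeR. There, 20 of 21 type I interferon-stimulated genes had values above 0 with a median of 0.98, 16 did not overlap and 19 had an unadjusted p under 0.05, and the interferon-gamma targets had 20 of 23 above 0 with a median of 0.61, 12 without overlap and 11 at an unadjusted p under 0.05. Over all genes tested, 7.46% did not overlap on the higher side and 4.31% had an unadjusted p under 0.05 there. DESeq2 called 3 of the former and 5 of the latter, and limma called 0 of both. After APAP, KO against WT, the type I list again had 20 of 21 above 0 (median 0.47), Bst2 being the exception here and Mx2 with vehicle. The interferon-gamma targets, in contrast, had 8 of 23 above 0 (median -0.10). Both lists had 0 calls by edgeR, DESeq2 and limma. An unadjusted p under 0.05 on the higher side was found for 4 and 1 of their genes, and for 1.03% of all genes tested. The 12 partners in autophagy and inflammasome activation had a median of 0.08 in KO vehicle against WT vehicle. After APAP under the KO label 1 of them fell, near the 9.6% of all genes tested that fell. It was the pore-forming Gsdmd (by 0.54, SE 0.12, adjusted p = 0.0149, edgeR), a call lost without KO APAP replicate 1 (0.0546).

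**Figure D4:**
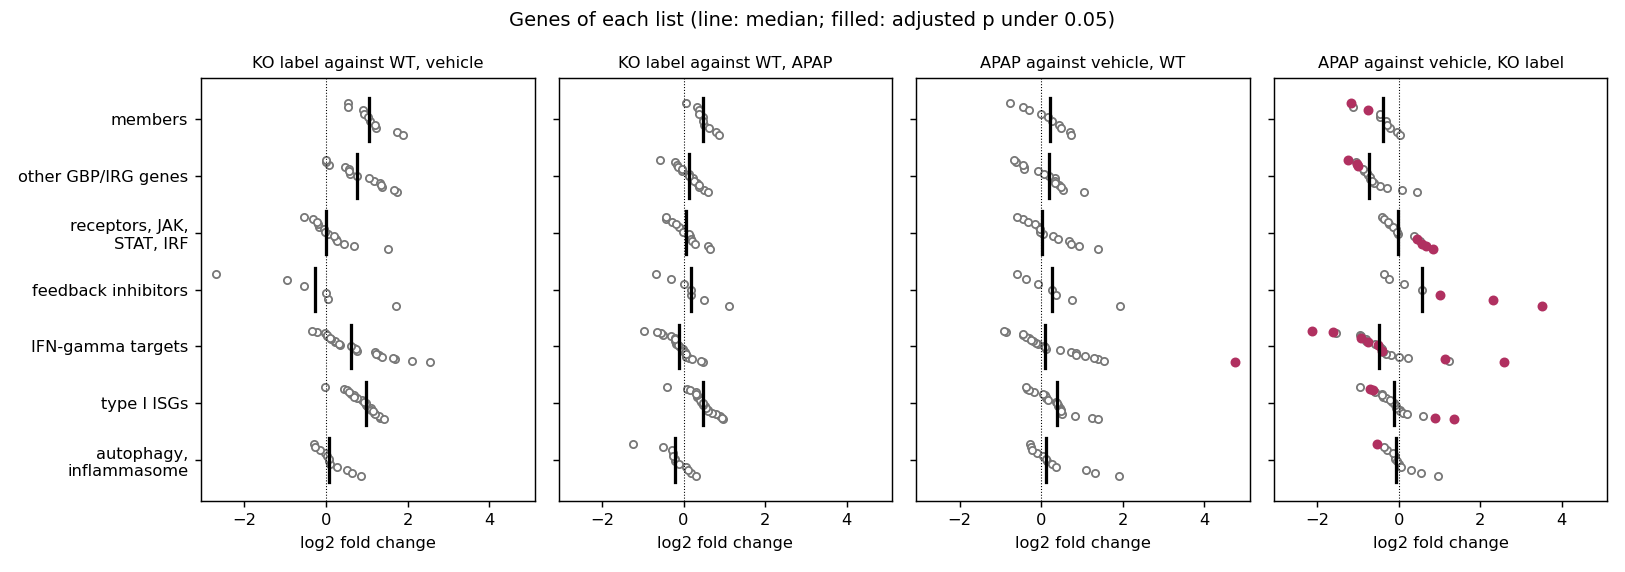
Log2 fold changes of the genes in 7 lists (rows; each point a gene, the line the list's median) in the 4 comparisons; filled points have an adjusted p under 0.05 by edgeR. The members, other family genes and type I interferon-stimulated genes (ISGs) have medians of 1.06, 0.75 and 0.98 in the vehicle comparison of the KO label with WT, which holds 0 filled points.

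The members varied together only in part. Over the 12 livers, the Pearson r between the log2 CPM of 2 members was above 0 for 45 of 45 pairs, with a median of 0.62 (0.14 to 0.92). After the group means were taken out, the median was 0.26 (-0.47 to 0.84), with 35 of 45 above 0. The 12 livers fall into 4 groups and the genes were chosen together, so these values only describe the set. Gbp10 followed the mean profile of the set most closely (r = 0.93), then Gbp6 (0.91) and Gbp3 (0.88), and Iigp1 least (0.62). Each member is itself part of that profile, which raises its r. Gbp6 and Gbp10 also share much of their sequence, so their reads may be counted in part for each other.

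Of 12189 genes compared with the members' mean profile over the 12 livers, the 10 most alike were Nr3c2 (r = 0.883), which encodes the mineralocorticoid receptor, Zc3hav1 (0.879), an antiviral zinc finger protein gene, Tgtp1 (0.878), Trim12c (0.876), Trim30d (0.874), Xaf1 (0.861), Sh3bgrl2 (0.854), Rtp4 (0.848), Trim12a (0.838) and Uba7 (0.835), the activating enzyme for ISG15. With the group means taken out, r lay between 0.312 (Xaf1) and 0.761 (Trim12a). Of the 50 most alike genes 12 were on one of the lists, among them Tap1 at rank 22 (r = 0.82).

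Markers of lymphocytes, the usual source of interferon-gamma, were few in number. They went with the members in the vehicle livers and in APAP against vehicle under the KO label, but not throughout. The summed level of 12 NK and T cell markers was 1.96 to 2.93 CPM in WT vehicle, 3.60 to 8.97 in KO vehicle, 1.64 to 4.75 in WT APAP and 2.99 to 4.08 in KO APAP. Every KO vehicle liver lay above every WT vehicle liver, and 6 of the 7 tested markers had values above 0 in that comparison. By edgeR, DESeq2 or limma 0 were called, and 3 had an unadjusted p under 0.05 on the higher side. Over all genes tested, 51.1% had values above 0 and 4.31% had such an unadjusted p. Of the defining markers, Cd3e was counted in all 12 livers, and Ncr1 of NK cells was at 0 in 10. KO vehicle replicates 1 and 3, the highest in the members' profile (mean z-scores 1.58 and 1.22), also had the highest marker sums (7.22 and 8.97 CPM), whereas replicate 2 had a mean z-score of 0.285 and 3.60 CPM of markers. WT APAP replicate 1, in contrast, had 4.75 CPM of these markers and a mean z-score of -0.692. After APAP under the KO label, 10 of 10 tested NK and T cell markers were below 0 (median -0.84, 1 called lower by edgeR). Of the members 9 of 10 were below 0 there. Monocyte markers were below 0 for 4 of 4 (2 called lower) and Kupffer cell markers for 6 of 6 (0 called). Neutrophil markers were above 0 for 4 of 4 (1 called higher). Over all genes tested, 48.4% were above 0, 9.6% were called lower and 13% higher. In KO APAP against WT APAP livers 4 of 8 tested NK and T cell markers were above 0 (median -0.05), where 10 of 10 members were. Stellate cell markers also separated the vehicle groups, with 146 to 167 CPM in WT and 202 to 246 under the KO label. Of these markers, 3 of 5 had an unadjusted p under 0.05 on the higher side, against the same 4.31% (0 called by edgeR and limma, 1 by DESeq2). Kupffer cell markers overlapped between the vehicle groups (80.2 to 129 CPM in WT and 107 to 183 under the KO label), as did monocyte markers (15.6 to 31.8 and 24.4 to 47.5 CPM). The labelled tissue was borne out by hepatocyte markers, which summed to 66000 to 129000 CPM over all livers. WT APAP replicate 1 stood apart, with 130 CPM of neutrophil and 10900 CPM of erythroid markers, where the other livers had at most 22.5 and 499. Neutrophil markers were higher in all 3 WT APAP livers (12.7 to 130 CPM) than in all 3 KO APAP livers (1.10 to 8.55). In that comparison 6 of 6 tested markers had values below 0 under the KO label. Their median was -3.66, against -0.017 over all genes tested, and edgeR, DESeq2 and limma called 0 of them. By edgeR 6 of these 6 had an unadjusted p under 0.05 on the lower side, and the groups did not overlap for 6. The shares of all genes on the lower side are not reported here. Without WT APAP replicate 1, Gbp2 stood at -0.09 and the members' other 9 values stayed above 0 in KO APAP against WT APAP. The part of these cells in the members' levels was not tested.

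**Figure D5:**
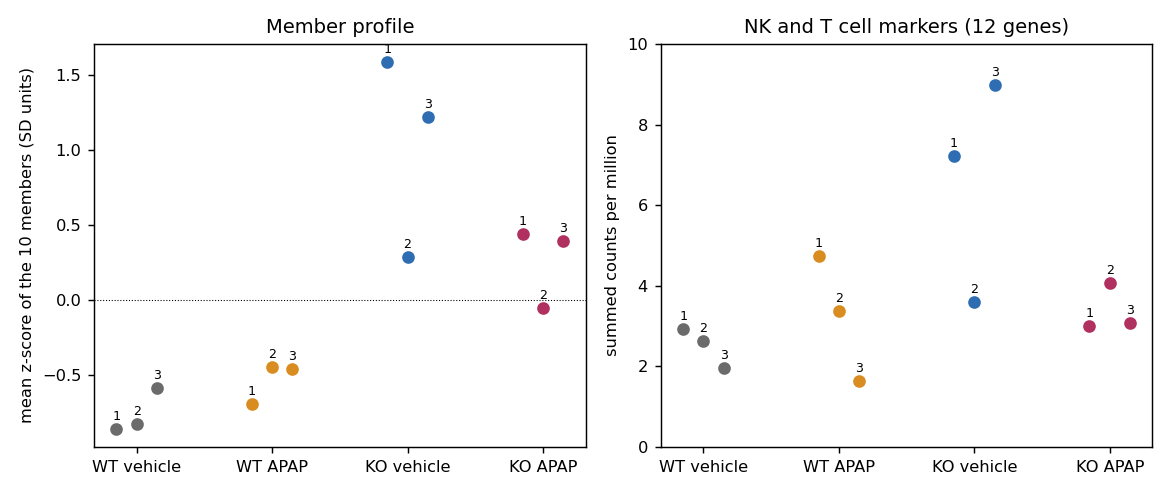
Left, the mean z-score of the 10 members' log2 CPM in each liver; right, the summed CPM of 12 NK and T cell marker genes in the same livers (numbers are replicates). KO vehicle replicates 1 and 3 are highest in both panels.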

How the data were processed

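RNA was sequenced from 12 livers (TruSeq Stranded mRNA, poly-A, paired ends, NovaSeq), and each library took its group from its own label. The authors deposited one table with raw read counts per gene, FPKM and TPM for each library. The deposited counts are raw whole numbers, the deposited TPM values were corrected by the authors for length and depth, and the deposited FPKM values were left aside. The submitters' processing notes name FastQC 0.11.7, Trimmomatic 0.38, HISAT2 2.1.0, Bowtie2 2.3.4.1 and StringTie 2.1.3b, with mm10. All per-sample columns were mapped (0 left out). The members and gene lists were chosen with earlier results of these data known.

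Counts were tested with edgeR 4.0.16 (R 4.3.3): TMM scaling, filterByExpr, quasi-likelihood test, Benjamini-Hochberg adjustment over all genes tested, threshold 0.05, on the 6 livers compared, or all 12 for the interaction. SE is the standard error of the log2 fold change. CPM uses TMM-scaled library sizes, and log2 CPM adds 1. Named genes were all members, Irf1, Irf8, Ifng, Ifngr1 and Socs1, at most 4 of each pathway list by smallest p in a comparison, the 10 genes most like the members' mean profile (mean log2 CPM at least 1), and Gna12; 1 further gene of the rule is not reported here. Genes of the other family list were counted, and those named among them with values, and single marker genes, were picked after their values were seen. On simulated counts with 200 well-counted genes changed 4-fold, the test recovered between 78.5% (APAP in WT) and 96% (APAP under the KO label). Among its calls, 10 of 167 (APAP in WT) and 21 of 213 (APAP under the KO label) were genes left unchanged. Smaller changes, changes in genes with few counts and the interaction were not simulated, so recovery there is not known. Alternatives were DESeq2 1.42.0 and its size factors, no filter, at least 10 counts in every sample, all 12 livers in one fit, the replicate block, limma 3.58.1 on quantile-normalized log2(TPM + 1), and each library left out. The label difference averaged over both treatments was added after the data were seen. Replicates are separate livers, and counting error alone underlies the floor of 3 counts.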

Additional observations from a re-analysis of the deposited data

How the results depend on the processing

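Members called in APAP against vehicle under the KO label numbered 2 by edgeR, 3 by DESeq2 (Gbp8 added) and 1 (Gbp7) with the replicate block or with all 12 livers in one fit, and 1 to 2 with a library left out. In WT, DESeq2 called 1 member against 0 by edgeR (0 to 0 with a library left out). In KO vehicle against WT vehicle DESeq2 called 5 against 0. The label difference averaged over vehicle and APAP livers, an alternative chosen after seeing the data, called 1 member (Gbp6), with a median of 0.71, in place of 0 members and medians of 1.06 with vehicle and 0.48 after APAP. Limma on TPM moved the vehicle median from 1.06 to 0.61. With each library left out, the median ranged from 0.80 to 1.28 (KO against WT, vehicle), 0.34 to 0.58 (KO against WT, APAP), 0.10 to 0.28 (APAP, WT), -0.56 to -0.19 (APAP, KO label) and -0.90 to -0.42 (interaction). No median changed sign under any setting run. The causes of these shifts were not tested.

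Over all genes, calls moved by more than 1.5 times: in WT from 255 higher and 67 lower to 877 and 536 with DESeq2, 968 and 555 with all livers, 61 and 1 with the block, and 41 and 0, 42 and 1 and 67 and 1 without WT vehicle replicate 3, WT vehicle replicate 1 or WT APAP replicate 3; in KO vehicle against WT vehicle from 2 and 2 to 75 and 62 with DESeq2 and to 0 and 0 with the block, all livers or without KO vehicle replicate 2 or 3, and 7 and 9 without KO vehicle replicate 1; in KO APAP against WT APAP from 3 and 2 to 8 and 21 with DESeq2, 6 and 2 with limma, 1 and 0 at 10 counts in every sample, 0 and 1 with the block or without WT APAP replicate 3, 1 and 1 without KO APAP replicate 1 or 2, and 0 and 0 with all livers; in APAP against vehicle under the KO label from 2034 and 1504 to 1405 and 844 with all livers and to between 1261 and 734 (without KO vehicle replicate 2) and 1967 and 1401 (without KO APAP replicate 2) with a library left out. Same-numbered livers did not deviate together (r -0.386 to 0.181 over 18 pairs, 1 over 0.1), so the numbers do not pair the samples, and the block changed no other member's call. Gbp8 rests on the fewest counts, 16 to 221 per liver.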
